A study of Mus musculus with 28 samples.

Results

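Complement regulators are the proteins that keep complement from attacking the body's own cells, and 8 of their genes were followed through the mouse testis, out of 37206 genes with a symbol in the deposited table: Cd46, Cd55, Cd59a, Cd59b, Cr1l, Cfi, Clu and Serping1. They were taken from a list of regulators expected on germ cells or Sertoli cells, and every deposited transcript of a gene was summed to give its level. RNA sequencing of polyadenylated RNA was available for 28 libraries from Csmd1 wildtype mice and mice with a constitutive Csmd1 knockout. Csmd1 encodes a membrane protein built of complement-type domains. Germ cells had been sorted by Hoechst staining into spermatogonia (gate R5, 2 wildtype and 2 knockout mice), primary spermatocytes (R7, 2 and 4), secondary spermatocytes (R6, 2 and 3) and spermatids (R4, 3 and 2), and 2 wildtype testes, 5 knockout testes and 1 wildtype ovary were sequenced whole. Each mouse gave at most 1 library per stage, so the mouse was the replicate within a stage. Some mice gave several stages, and the reported fits treated these libraries as independent. Values with mouse as a block are given where they changed the call of a member. The strain label was C57BL/6 for all mice, whereas the study's methods describe a mixed 129SvEvBrd:C57BL/6 background, sorted males that were sexually mature, and a knockout allele in which a lacZ and neomycin cassette takes the place of exon 1 and part of intron 1. The study also shows whole testes of sexually immature mice, and the labels give no age. Its sample list gives 40 days, the age of the mature sorted males, for mice 178 and 351. For the other mice no age of their own was found. The methods give the age of 40 days for sorted males in general, with 1 testis of a mouse sorted and the other sequenced whole. That description would include mice 286 and 648, which gave both kinds of library. Whether it held for every mouse, and which whole testes were immature, is not known here. The knockout was germline and not limited to a cell type, no agent was given to any group, and no library was described as a pool of animals.

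Complement is a cascade of proteins that ends, on an unprotected surface, in a pore through the membrane. Host cells interrupt it at set steps: CD55 takes apart the enzyme complexes that cleave C3 and C5, CD46 and the rodent protein CRRY (from Cr1l) serve as cofactors for factor I (from Cfi), a protease that cuts C3b and C4b, and CD59 blocks the assembly of the pore. Clusterin (Clu), a major secreted product of Sertoli cells, binds terminal complement proteins, and the C1 inhibitor (Serping1) stops the proteases that start the classical pathway. In rodents CD46 is known mainly from the testis and from sperm. RNA levels do not show which protein protects a cell.

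Depth could be read back from the values for 27 of the 28 libraries and was 23820650 to 61684867 mapped reads, with a median of 45386768. The primary spermatocyte library of knockout mouse 613 was made another way, since only 14.1% of its values were whole reads against 93.1% to 94.6% elsewhere, so it is left out where levels are listed by stage unless named. It stayed in the limma fits, the genotype means and the correlations, and values without it are given where it decided a call. The spermatogonia library of knockout mouse 544 stood apart through spermatid transcripts, with 1402 RPKM (reads per kilobase of transcript and scaled to the mapped reads of the library) of Prm1, the protamine of late spermatids, where the other 3 spermatogonia libraries had 0.094 to 92.9. Every library of wildtype mouse 648 and knockout mouse 286, and the knockout testes 269 and 308, held Prm1 at 2.14 RPKM or less, spermatid libraries included, against 930 to 2579 in the spermatids of mice 178, 351 and 544. Summed Csmd1 was 0.049 to 6.33 RPKM in the sorted knockout libraries and 0.033 to 1.66 in the sorted wildtype ones, and because these sums include transcripts and exons beyond the deleted exon 1 they check no genotype label. For knockout testes the study reports reduced reads over most Csmd1 exons and raised reads over the last ones. In these bulk samples fewer cells of a type and less RNA per cell cannot be told apart.

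The sorted stage with the highest median was not the same for all 8 regulators. Among the sorted gates Cr1l, Clu and Serping1 had their highest medians in spermatogonia, Cd55 rose in spermatids, where Cd46 also had its highest median, and primary spermatocytes without mouse 613 had the lowest stage medians of Cd46, Cd55, Cd59a, Cd59b, Cr1l, Clu and Serping1. Between neighbouring stages in the order of medians the libraries overlapped for every gene, with the exception of Cd59a between spermatogonia and primary spermatocytes once mouse 613 was left out. The plot of all 8 genes by library shows these levels.

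**Figure D1:**
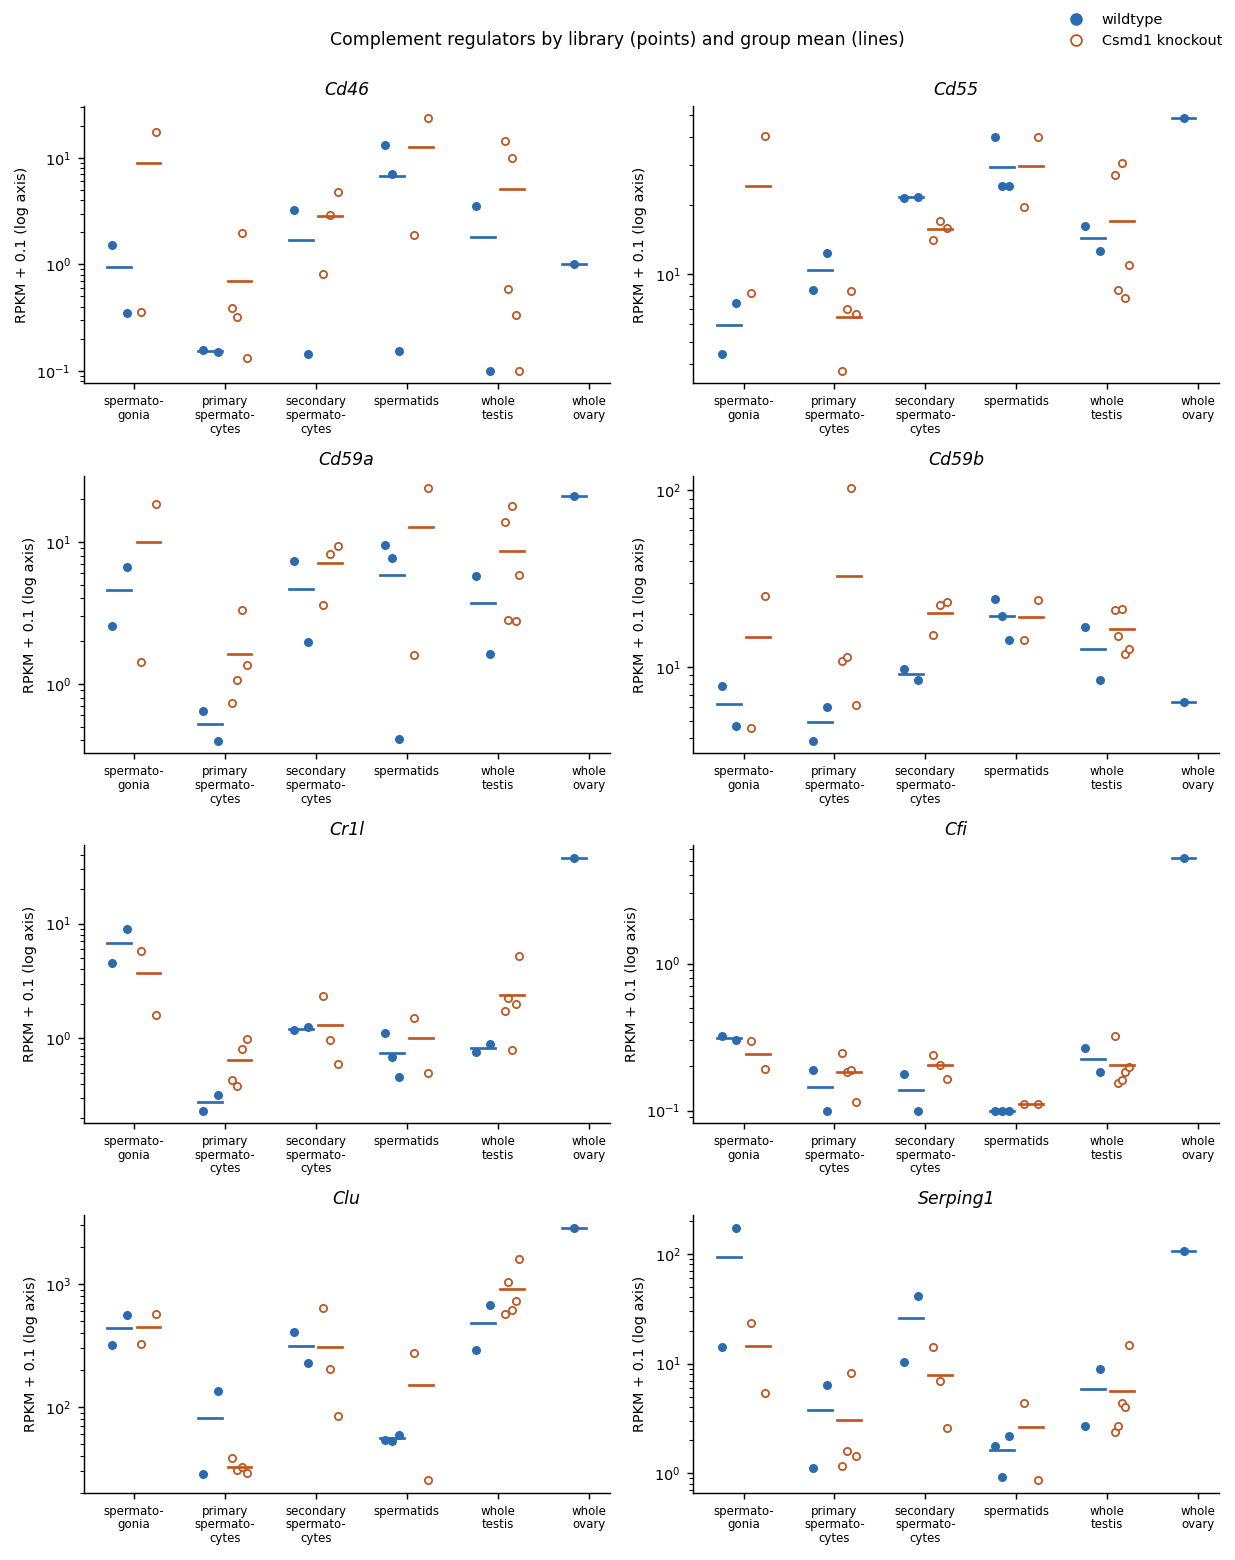
Each point is the summed RPKM plus 0.1 (log axis) of 1 gene in 1 library, by stage or organ, with filled points for wildtype and open points for Csmd1 knockout mice and a line at each group mean. Cr1l and Clu are high in spermatogonia, Cd55 lies between 19.5 and 39.8 RPKM in all 5 spermatid libraries, and the open point near 103 RPKM in the Cd59b panel is mouse 613, whose values were made another way.

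With limma across 19050 genes on log2(RPKM + 0.1), 4 of the 8 genes differed among the 4 stages (Benjamini-Hochberg adjusted p of 0.00118 for Clu, 0.00259 for Cd55, 0.00726 for Cr1l and 0.0137 for Serping1), where 51.8% of all genes did. For the other 4 genes the adjusted p lay between 0.0939 for Cd46 and 0.265 for Cd59b. Entering the mouse as a block raised the count to 7 of 8, leaving out Cd59b. Without the 2 libraries named above (primary spermatocytes of mouse 613, spermatogonia of mouse 544) the count was also 7, leaving out Cd59a. It fell to 2 without mouse 178 (Clu and Serping1) or mouse 648 (Cd55 and Clu).

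**Figure D2:**
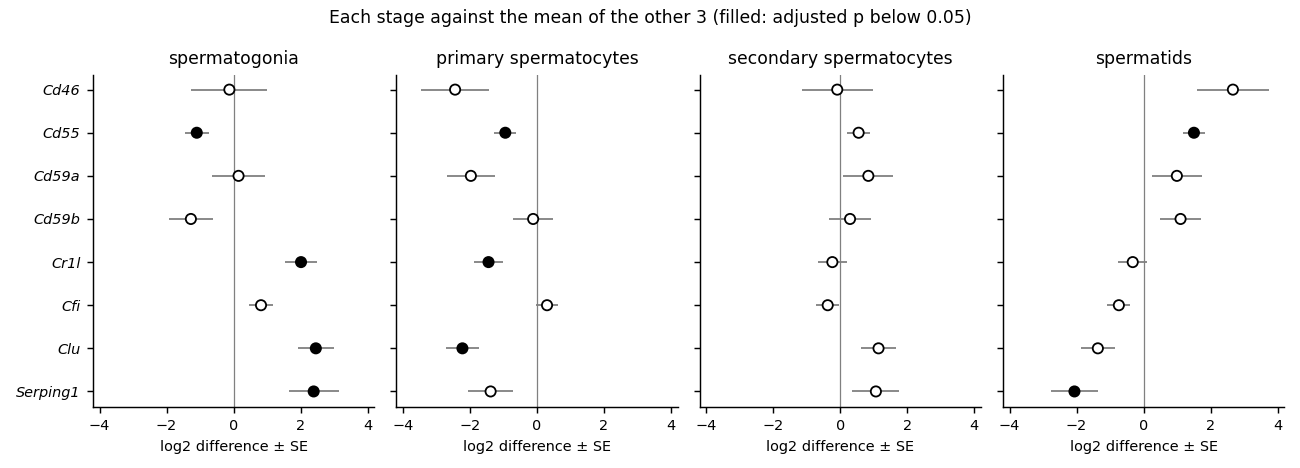
Each panel sets 1 stage against the mean of the other 3, with the log2 difference on the horizontal axis, the standard error as a bar, and filled points for an adjusted p below 0.05 in limma. Filled points are Cd55, Cr1l, Clu and Serping1 in spermatogonia, Cd55, Cr1l and Clu in primary spermatocytes, none in secondary spermatocytes, and Cd55 and Serping1 in spermatids.

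Cd55, the decay-accelerating regulator on chromosome 1 (chr1:130439027-130462744, minus strand, GRCm38), was the member called higher in spermatids. Its summed level there was 39.8, 24.3 and 24.2 RPKM in wildtype mice 178, 351 and 648 and 19.5 and 39.7 in knockout mice 286 and 544. In primary spermatocytes it was 8.34 and 12.3 in wildtype mice 178 and 648 and 3.64, 6.89 and 6.55 in knockout mice 544, 550 and 614. All 5 spermatid libraries lay above all of these. Secondary spermatocytes stood between them, with 21.5 and 21.7 RPKM in wildtype and 13.9, 17.0 and 15.9 in knockout mice.

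Spermatids carried 1.5 (SE 0.33) more Cd55 on the log2 scale than the mean of the other stages, with an adjusted p of 0.00381 in limma. It was the one member called higher there, where 14.9% of all genes were, and Serping1 was the one called lower, where 16.8% were (31.6% in either direction). Cd46 had a larger difference (2.66, SE 1.06) that missed the threshold. Within single mice the Cd55 of the spermatid library was above the mean of that animal's other gates by 2.10, 0.87, 1.54 and 0.95 on the log2 scale in mice 178, 286, 544 and 648. The difference was thus positive in all 4 mice, including the pair with almost no Prm1. In mouse 544 spermatids were not the highest gate, since its spermatogonia differed by 1.56 on the same scale. The part of late spermatid RNA in the Cd55 of this gate was not tested. Without mouse 178 the difference was 1.27 with an adjusted p of 0.0551. Cd55 fell in spermatogonia (−1.10, SE 0.36, adjusted p = 0.0208, limma) with 4.34 and 7.32 RPKM in the wildtype mice and 8.12 and 40.1 in the knockout mice. The value of 40.1 belongs to mouse 544, whose library carried the spermatid transcripts, and without that library the difference was −1.61. The call was lost without mouse 178, 286 or 648 (adjusted p between 0.0742 and 0.156). On RPKM as deposited, where spermatogonia had a median over all genes that was 0.70 higher, it was −0.65 with an adjusted p of 0.174.

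The lower Cd55 of primary spermatocytes was close to the threshold (−0.95, SE 0.32, adjusted p = 0.0461, limma). On the longest coding transcript alone it was −0.70 with an adjusted p of 0.177, and leaving out mouse 178, 351, 544, 550, 614 or 648 each gave an adjusted p between 0.0562 and 0.307. Cd55 shares sequence with its neighbour Cd55b, so how reads were divided between them is uncertain.

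The bases before the start of Cd55 are shown beside those of Cd46 and Cd59a, whose medians were also highest in spermatids, as was that of Cd59b. In the sorted mice with little Prm1, spermatids were not the highest gate for Cd59a (286 and 648) or for Cd46 in mouse 648. They were the highest gate for Cd46 in mouse 286. Each run is the 250 bases before the annotated start from RefSeq (GRCm38.p6), which held 5 of the 8 genes. Capitals mark matches, on either strand, to the GC box (GGGCGG), to the TGACG string, which also lies inside the longer cyclic AMP element (TGACGTCA), to the box CCAAT and to the box TATAAA.
Cd55, chr1:130462745-130462994, minus strand: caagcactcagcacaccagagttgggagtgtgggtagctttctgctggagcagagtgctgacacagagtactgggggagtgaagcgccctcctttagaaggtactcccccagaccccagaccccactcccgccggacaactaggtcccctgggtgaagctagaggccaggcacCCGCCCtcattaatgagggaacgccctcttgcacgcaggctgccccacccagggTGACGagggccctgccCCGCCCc
Cd46, chr1:195092249-195092498, minus strand: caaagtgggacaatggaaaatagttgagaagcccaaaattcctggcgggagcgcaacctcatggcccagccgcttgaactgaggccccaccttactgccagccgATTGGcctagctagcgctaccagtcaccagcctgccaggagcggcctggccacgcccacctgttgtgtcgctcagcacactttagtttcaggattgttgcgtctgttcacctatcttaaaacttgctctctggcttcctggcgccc
Cd59a, chr2:104095551-104095800, plus strand: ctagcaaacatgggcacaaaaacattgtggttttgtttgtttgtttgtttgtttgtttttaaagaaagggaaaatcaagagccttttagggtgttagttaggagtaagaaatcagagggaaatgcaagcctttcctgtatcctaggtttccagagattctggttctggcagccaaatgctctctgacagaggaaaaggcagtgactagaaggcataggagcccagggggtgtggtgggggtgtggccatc
GGGCGG was found in Cd55 at 2 positions and in 32.7% of 32851 such windows, TGACG in Cd55 once and in 17.8%, and CCAAT in Cd46 once and in 33.8%. The Cd59a window held none of the 5 strings, nor did that of Cd59b, which is not printed. TATAAA, found in 12.4% of windows, and TGACGTCA, found in 1.55%, were in none of these windows.

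Cd46, the membrane cofactor (chr1:195036826-195092249, minus strand), ranged widely among spermatid libraries. Its level was 13.1, 6.97 and 0.053 RPKM in the spermatids of wildtype mice 178, 351 and 648, and 1.78 and 23.4 in those of knockout mice 286 and 544. In primary spermatocytes it was 0.056 and 0.049 in wildtype mice and 0.288, 0.218 and 0.032 in knockout mice 544, 550 and 614. Spermatids of 4 mice were thus above all 5 of these primary spermatocyte libraries, and those of mouse 648 were not.

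Across gates the level was high where Prm1 was high. The spermatogonia of mouse 544, rich in Prm1, had 17.5 RPKM of Cd46, against 1.43, 0.248 and 0.258 in mice 178, 648 and 286. Whole testes with Prm1 from 603 to 1922 RPKM had 3.4 (wildtype 178), 14.2 (knockout 214) and 9.85 (knockout 273), and those with Prm1 under 1.2 RPKM had 0 (wildtype 648), 0.487 (knockout 269), 0.234 (knockout 286) and 0 (knockout 308). The testes with much Prm1 and those with little did not overlap. In the testes listed at 0 the longest coding transcript had no read, which allows a level of up to 0.00897 RPKM in mouse 648 and 0.00983 in mouse 308, counting error only (3 reads). Its reads in spermatids ranged from 7 in mouse 648 to 2184 in mouse 544.

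For spermatids against the other stages the difference in Cd46 was 2.66 (SE 1.06) with an adjusted p of 0.0646 in limma, which passed the threshold with mouse as a block (2.66, adjusted p = 0.0101). Without mice 286 and 648 it was 3.50 with an adjusted p of 0.00588, an alternative chosen after seeing the data. For primary spermatocytes it was −2.44 (SE 1.03, adjusted p = 0.0961), and −2.70 with an adjusted p of 0.0123 with the block. The part of late spermatid RNA in these differences was not tested. Reads of the Cd46 locus overlap Gm37132 on the same strand and A330023F24Rik, Mir29b-2 and Mir29c on the other, which unstranded counting cannot separate.

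**Figure D3:**
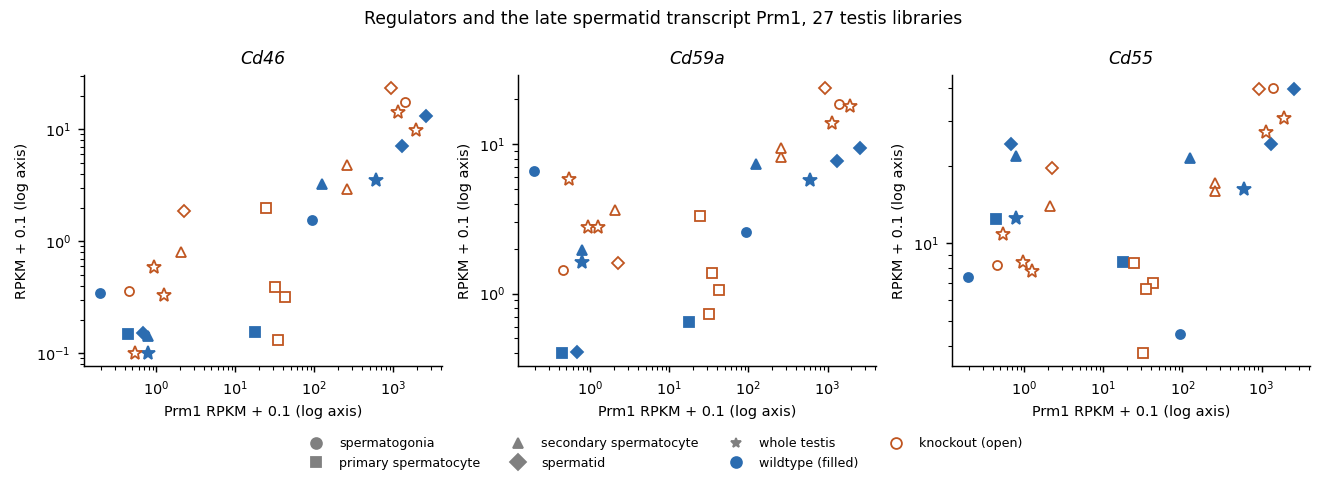
Summed RPKM plus 0.1 of Cd46, Cd59a and Cd55 against Prm1 RPKM plus 0.1 (both log axes) in the 27 testis libraries, with shapes for stages, filled for wildtype and open for knockout. Libraries with Prm1 at 603 RPKM or more hold Cd46 at 3.4 RPKM or more, while Cd55 reaches 24.2 RPKM in spermatids of mouse 648, where Prm1 is 0.579.

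Cd59a, which encodes the broadly expressed mouse form of the pore inhibitor (chr2:104095801-104115354, plus strand), was also uneven among spermatids. They had 9.39, 7.65 and 0.306 RPKM in wildtype mice 178, 351 and 648 and 1.5 and 23.8 in knockout mice 286 and 544. Primary spermatocytes had 0.545 and 0.298 in wildtype mice and 0.631, 0.958 and 1.27 in knockout mice 544, 550 and 614. The spermatids of mouse 648 lay inside the range of the primary spermatocytes and the other 4 above it. Whole testes did not divide by Prm1 as they did for Cd46: those with much Prm1 had 5.66 (178), 13.8 (214) and 17.8 (273) RPKM of Cd59a, and those with little had 1.53 (648), 2.70 (269), 2.68 (286) and 5.72 (308).

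In spermatogonia Cd59a was at 2.48 and 6.54 RPKM in wildtype mice 178 and 648, 1.33 in knockout mouse 286 and 18.5 in mouse 544. No difference in Cd59a passed the threshold in limma: that of primary spermatocytes was −1.97 (SE 0.72, adjusted p = 0.0594), and −2.24 with an adjusted p of 0.00855 with mouse as a block. For spermatids it was 0.99 (adjusted p = 0.32), and 2.24 with an adjusted p of 0.00427 without mice 286 and 648. Within mice, the log2 difference of Cd59a between spermatids and the remaining gates was 2.04 and 2.31 in mice 178 and 544 and −0.50 and −2.09 in mice 286 and 648, so the direction split by mouse.

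Cd59b, its neighbour (chr2:104069849-104091187, plus strand), is known mainly from the testis, and its sum mixed transcripts with different ends. A set of 3 transcripts, ENSMUST00000090429, ENSMUST00000111130 and ENSMUST00000129749, holds the coding exon chr2:104084422-104084645 of 224 bases. The other 2, ENSMUST00000111131 and ENSMUST00000111132, skip that exon and end in one that starts at position 104091004. The last coding stretch of each gene is printed to show what separates Cd59a reads from Cd59b reads, with capitals at bases that differ or have no counterpart in the alignment.
Cd59a, chr2:104113975-104114177, plus strand: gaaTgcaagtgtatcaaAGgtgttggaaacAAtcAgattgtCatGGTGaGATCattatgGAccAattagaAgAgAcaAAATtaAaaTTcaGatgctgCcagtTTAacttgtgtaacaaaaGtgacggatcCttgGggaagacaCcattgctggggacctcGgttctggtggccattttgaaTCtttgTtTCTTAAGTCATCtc
Cd59b, chr2:104084422-104084645, plus strand: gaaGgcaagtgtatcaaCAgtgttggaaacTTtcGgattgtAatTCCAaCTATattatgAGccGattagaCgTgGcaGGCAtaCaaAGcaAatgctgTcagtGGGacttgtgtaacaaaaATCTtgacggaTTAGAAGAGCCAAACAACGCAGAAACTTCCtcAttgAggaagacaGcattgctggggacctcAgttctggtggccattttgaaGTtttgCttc
These stretches were identical at 150 of 236 aligned positions (63.6%), with no shared run over 20 bases, and the whole coding sequences at 74.9%, with no shared run over 47 bases.

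The transcripts with the coding exon were highest in libraries rich in Cd46. Together they had 8.70, 8.45 and 0.249 RPKM in spermatids of wildtype mice 178, 351 and 648 and 0.525 and 10.5 in those of knockout mice 286 and 544. Whole testes of knockout mice 214 and 273 had 11.4 and 10.8, wildtype mouse 178 had 3.0, and the testes of mice 648, 269, 286 and 308 had 0.094, 0.824, 0.229 and 0.205. The testes of the last 4 mice all lay below those of the first 3. The transcripts ending in the downstream exon did not separate the mice in this way: they had 15.6, 10.9, 14.0, 13.7 and 13.6 RPKM in the spermatids of mice 178, 351, 648, 286 and 544, and 8.25 to 14.0 in whole testes.

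In every sorted library the downstream-exon transcripts made up most of the sum. In spermatids the share with the coding exon was 35.8%, 43.7% and 1.75% in wildtype mice 178, 351 and 648. In knockout mice 286 and 544 it was 3.68% and 43.6%. The share with the coding exon was 0% to 38.7% in primary spermatocytes without mouse 613 and 15.2% to 25.1% in secondary spermatocytes. In the spermatogonia of mouse 544 it was 46.2%, against 7.93%, 26.6% and 9.18% in mice 178, 648 and 286. In mouse 613 the sum of 103 RPKM came almost wholly from the downstream-exon transcripts, at 102, in the column that was made another way.

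**Figure D4:**
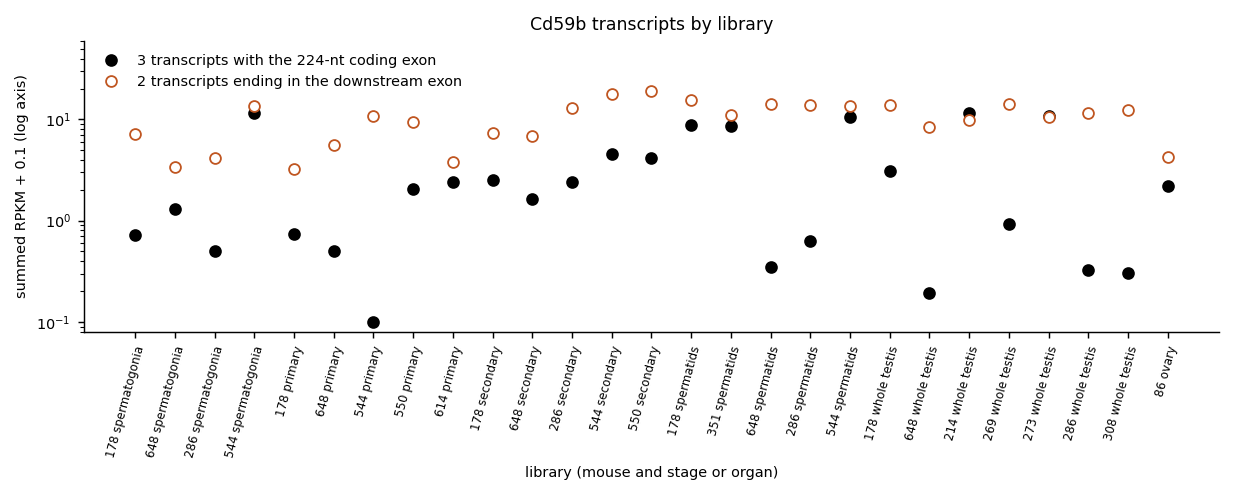
Summed RPKM plus 0.1 (log axis) of the 3 Cd59b transcripts with the 224-base coding exon (filled) and of the 2 that end in the downstream exon (open), for 27 libraries in order of stage, without mouse 613. The open points lie between 3.11 and 19.1 RPKM, while the filled points fall below 1 RPKM in the spermatids and whole testes of mice 648 and 286.

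The whole Cd59b sum differed in no stage in limma (spermatids 1.10, SE 0.62, adjusted p = 0.186; spermatogonia −1.28, SE 0.66, adjusted p = 0.133). Mouse 613 decided both calls: without it the values were 1.26 (adjusted p = 0.0108) and −0.99 (adjusted p = 0.0379). The sum was 24.3, 19.4 and 14.2 RPKM in wildtype spermatids and 14.3 and 24.1 in knockout ones, above the 3.75 to 11.4 RPKM of the 5 other primary spermatocyte libraries. On the longest coding transcript the spermatid difference was 1.27 with an adjusted p of 0.202.

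Cr1l, the gene of CRRY (chr1:195103790-195131561, minus strand), was highest in the spermatogonia gate. It was at 4.47 and 8.83 RPKM in wildtype mice 178 and 648 and 5.68 and 1.5 in knockout mice 286 and 544. Primary spermatocytes had 0.133 and 0.218 in wildtype and 0.332, 0.283 and 0.874 in knockout mice 544, 550 and 614. The ranges did not overlap, and the lowest spermatogonia library was again that of mouse 544.

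Spermatogonia exceeded the mean of the other stages in Cr1l by 2.01 (SE 0.47, adjusted p = 0.00312, limma), one of 4 members called there (3 higher, 1 lower) where 41.9% of all genes were, 20.9% higher and 21% lower. In each of mice 178, 286, 544 and 648 the spermatogonia library was above the same mouse's other stages, by 2.77, 1.63, 1.43 and 3.97 on the log2 scale. Without mouse 648 the difference was 1.81 with an adjusted p of 0.0574. In primary spermatocytes Cr1l was lower by limma (−1.45, SE 0.42, adjusted p = 0.0242), as were Cd55 and Clu, so that 3 members were called, all lower, where 21.5% of all genes were called, 11.9% higher and 9.61% lower, and the adjusted p was 0.196 without mouse 178 and 0.123 without mouse 648. Spermatids had 0.362 to 1.39 RPKM and secondary spermatocytes 0.5 to 2.23. Of the 6 spermatogonia markers (Zbtb16, Kit, Stra8, Gfra1, Dmrt1, Uchl1), 5 were higher in the same gate, with sums of 619 to 648 RPKM in mice 286, 178 and 648 and 289 in mouse 544. Markers of other cells were higher there too: 5 of 6 stromal, 4 of 6 macrophage, 3 of 7 Sertoli and 2 of 6 primary spermatocyte markers. The part of these cells in the Cr1l of this gate was not tested.

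Cfi, the gene of the soluble protease factor I (chr3:129836737-129875332, plus strand), was at the edge of detection in the testis. It was at 0.091 to 0.223 RPKM in spermatogonia, which was 7 to 27 reads, and at 0 to 0.01 in spermatids, which was at most 1 read. The spermatid libraries at 0 allow up to 0.028 to 0.0606 RPKM (3 reads, counting error only). Spermatid levels therefore lay below those of spermatogonia in all libraries, but the difference of −0.74 (SE 0.34) had an adjusted p of 0.108 in limma, and −0.82 with 0.0331 with mouse as a block. The difference of spermatogonia was 0.82 (SE 0.37, adjusted p = 0.083), and 0.97 with 0.0246 on RPKM as deposited.

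Clu, the gene of clusterin (chr14:65968483-65981547, plus strand), had the highest level of the 8 genes per length in 26 of the 28 libraries, and Cd55 in the spermatids of mice 178 and 544. Spermatogonia had 318 and 559 summed RPKM in wildtype mice 178 and 648 and 323 and 564 in knockout mice 286 and 544. Primary spermatocytes had 28.5 and 135 in wildtype mice and 38.1, 30.8 and 28.9 in knockout mice 544, 550 and 614. Spermatogonia of all mice lay above primary spermatocytes of all mice. Secondary spermatocytes had 403 and 226 in wildtype and 638, 202 and 83.9 in knockout mice, and spermatids 53.8, 53.1 and 59.0 in wildtype and 277 and 25.2 in knockout mice.

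In limma Clu was higher in spermatogonia by 2.45 (SE 0.54, adjusted p = 0.00228) and lower in primary spermatocytes by 2.23 on the log2 scale (−2.23, SE 0.49, adjusted p = 0.00601). Without mouse 178 the second value was −1.66 with an adjusted p of 0.171. In spermatids the difference was −1.37 (SE 0.51, adjusted p = 0.0504), and −1.51 with 0.00727 with mouse as a block. The highest spermatid and secondary spermatocyte levels, 277 and 638 RPKM, both came from mouse 286.

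The markers of Sertoli cells, Clu's known source, had high sums in the same libraries. Summed over 8 markers (Sox9, Wt1, Gata4, Cldn11, Rhox5, Dhh, Fshr, Aard) they were at 76.5 to 143 RPKM in spermatogonia, 5.71 to 33.7 in primary spermatocytes, 18.0 to 133 in secondary spermatocytes and 5.72 to 53.4 in spermatids. Of the 7 markers that were tested, 3 were higher in spermatogonia, where 20.9% of all genes were called higher. In primary spermatocytes 2 were lower, where 9.61% of all genes were called lower. The highest sums of secondary spermatocytes and spermatids were again those of mouse 286, and Sox9, which defines the cell type, was above 0 in every testis library (0.096 RPKM or more). Rhox5 was at 0 in every testis library other than that of mouse 613, and Fshr at 0 in the primary spermatocytes of mice 178 and 544. The part of Sertoli RNA in the Clu of sorted gates was not tested.

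**Figure D5:**
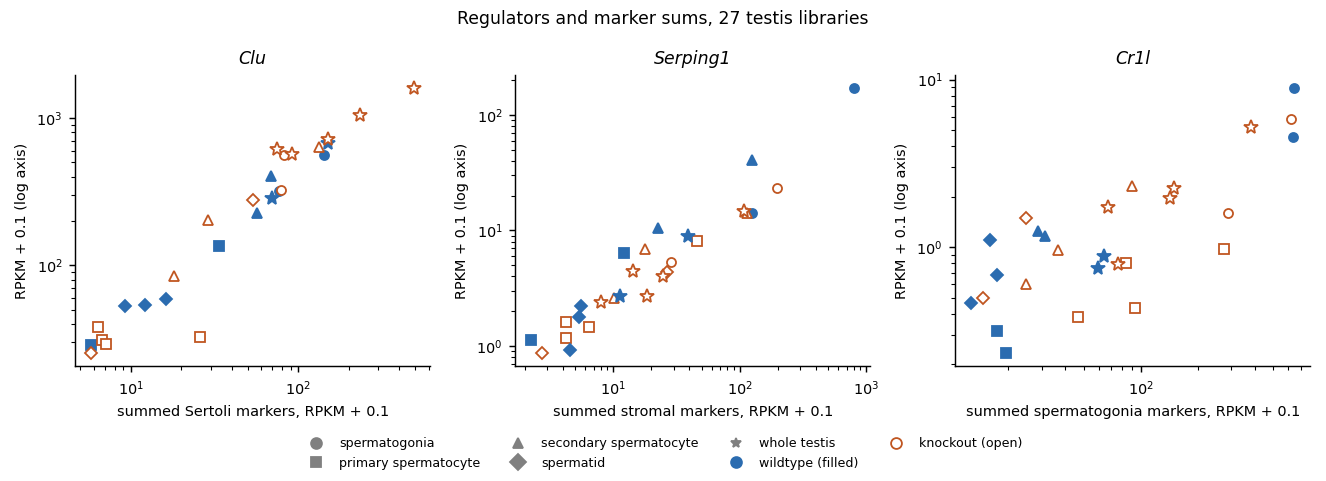
Summed RPKM plus 0.1 in the 27 testis libraries (both axes log) for Clu against the Sertoli marker sum, Serping1 against the stromal marker sum and Cr1l against the spermatogonia marker sum, with shapes for stages, filled for wildtype and open for knockout. The libraries with the least Clu, from 25.2 to 38.1 RPKM, include primary spermatocytes and spermatids with Sertoli sums of 5.71 to 7.0 RPKM, and the highest Serping1, 172 RPKM, is the spermatogonia library of mouse 648.

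Serping1, the gene of the C1 inhibitor (chr2:84765387-84775444, minus strand), varied widely between mice. In spermatogonia it was at 13.9 and 172 RPKM in wildtype mice 178 and 648 and at 23.3 and 5.24 in knockout mice 286 and 544. In spermatids it was at 1.69, 0.825 and 2.11 in wildtype and 4.27 and 0.761 in knockout mice. All 4 spermatogonia libraries lay above all 5 spermatid libraries.

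Limma gave 2.39 (SE 0.75, adjusted p = 0.0178) for spermatogonia and −2.07 (SE 0.70, adjusted p = 0.0344) for spermatids. Neither call held without mouse 648 (1.76, adjusted p = 0.114, and −1.52, adjusted p = 0.11), the first was also lost without mouse 286 (1.95, adjusted p = 0.119), and the second without mouse 286, 351 or 544 (adjusted p between 0.0552 and 0.157). Stromal markers (Acta2, Myh11, Pdgfra, Col1a1, Dcn, Col3a1) moved with it: 5 of 6 were higher in spermatogonia, their sum was 804 RPKM in mouse 648 against 28.7 to 198 in the other 3, and 2.62 to 26.8 in spermatids, with none of the 6 at 0 in a testis library. In primary spermatocytes the difference of Serping1 was −1.38 (SE 0.68, adjusted p = 0.149, limma), and −1.93 with an adjusted p of 0.0468 without the libraries of mouse 613 and of mouse 544's spermatogonia. The part of stromal RNA in the Serping1 of sorted gates was not tested.

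In secondary spermatocytes no member differed from the other stages, where 0% of all genes were called in limma and 2299 of 19050 had an unadjusted p below 0.05. Clu came nearest, at 1.14 (SE 0.51, adjusted p = 0.395).

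No difference between knockout and wildtype mice was called for any member. Over the sorted stages the smallest adjusted p of the 8 genes was 0.699 in limma, with 0 of the 8 at an unadjusted p below 0.05, where 0.0105% of all genes were called and 1315 of 19050 had an unadjusted p below 0.05. In whole testes the adjusted p was 0.998 for each gene, where 0% were called, 865 of 23585 genes had an unadjusted p below 0.05, and none of the 8 did. Nor did the genotype effect differ among stages (adjusted p = 1 for each, 0% called, 472 genes and 1 member, Cd55, at an unadjusted p below 0.05). Libraries of the genotypes did not overlap in 9 of 40 pairs of member and stage or testis. These were Cd55 in spermatogonia, primary and secondary spermatocytes, and Cd59b in primary and secondary spermatocytes. The others were Cd59a and Cr1l in primary spermatocytes, and Cfi in spermatogonia and spermatids. How often all genes separate in this way was not counted, and some comparisons held only 2 libraries of a genotype, so the list is a description. Tested by stage, the smallest adjusted p of a member was 0.753 in limma, where 0% of all genes were called in each stage other than spermatids (0.00525%). Clu, for example, was at 288 and 679 RPKM in the 2 wildtype testes and at 1043, 723, 572, 1605 and 613 in the 5 knockout testes, which overlap. The libraries fell into 4 sets by the transcripts missing from them, and in the set that held 5 knockout testes and 1 wildtype testis the mean log2 difference between knockout and wildtype ran from −1.51 for Cd46 to 1.55 for Clu over the 8 genes. These differences rest on 1 wildtype testis and were not tested.

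The whole ovary shared its set of missing transcripts with no whole testis, so organ and set cannot be told apart. The ovary was also a single library, so its spread was assumed to be that of the testes and no variation between ovaries was measured. On that footing 4 members were called against wildtype testis, 3 higher and 1 lower, where 27.4% of all genes were called, 15.2% higher and 12.2% lower. Cfi was at 5.12 RPKM (562 reads) in the ovary against 0.167 and 0.082 in the testes of mice 178 and 648. Cr1l was at 37.3 against 0.651 and 0.792, and Serping1 at 106 against 2.57 and 8.87. The ovary lay above all 7 testes for these 3 genes. In limma the differences were 3.69 (SE 0.75, adjusted p = 0.00799) for Cfi, 4.55 (SE 1.11, adjusted p = 0.0178) for Cr1l and 3.44 (SE 1.07, adjusted p = 0.0436) for Serping1.

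Cd59b was the member called lower (−2.76, SE 0.69, adjusted p = 0.0196), with 6.23 RPKM in the ovary against 16.9 and 8.34. On RPKM as deposited, where the ovary's median over all genes was 1.62 higher on the log2 scale, the difference was −0.92 with an adjusted p of 0.301, and on the longest coding transcript it was −0.07 with 0.988. Clu, at 2854 RPKM against 288 and 679, gave 1.74 (SE 0.74, adjusted p = 0.117), and 2.69 with 0.0286 as deposited. Serping1 was also lost without knockout testis 214, 269, 273 or 286 (adjusted p between 0.051 and 0.0725). Without the testis of mouse 178 the count fell to 2 members, Cfi and Cd59b (Cr1l 3.95, adjusted p = 0.0687; Serping1 2.59, adjusted p = 0.16). Cd55 at 48.2 RPKM and Cd59a at 21.0 were also above both wildtype testes, with adjusted p-values of 0.795 and 0.552, and Cd46 at 0.915 was between them. Granulosa markers, 5 of 5 higher, and oocyte markers, 4 of 6 higher, matched the label of the ovary.

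Whole testes were also set against the mean of the sorted stages to ask which regulators sit outside the sorted cells. None passed the threshold, where 0.0158% of all genes were called and 1247 of 19023 had an unadjusted p below 0.05. Clu came nearest, with 288 to 1605 RPKM and a median of 679 in the 7 testes (2.12, SE 0.43, adjusted p = 0.103, limma). With mouse as a block it was 2.0 with an adjusted p of 0.0332, and without mouse 286 it was 2.48 with 0.00773. In the 3 mice with both kinds of library the testis exceeded the mean of the same mouse's sorted stages by 1.28, 0.91 and 1.93 on the log2 scale (mice 178, 286 and 648). Sertoli markers had sums of 69.5 to 491 RPKM in whole testes.

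Levels can be compared between genes only per length, so the longest coding transcript of each was used. In spermatids the medians over 5 libraries were 8.75 RPKM for Clu, 6.31 for Cd55, 2.40 for Cd59b, 2.14 for Cd46, 1.74 for Cd59a, 0.664 for Serping1, 0.581 for Cr1l and 0 for Cfi. In spermatogonia they were 65.7 for Clu, 8.12 for Serping1, 5.08 for Cr1l, 2.27 for Cd55, 1.81 for Cd59a, 0.271 for Cd59b, 0.200 for Cfi and 0.194 for Cd46. Among the members, the cell-bound regulator with the highest median on these transcripts was Cr1l in spermatogonia and Cd55 in spermatids. The spermatogonia libraries overlapped (Cr1l 1.5 to 8.83, Cd55 1.27 to 11.2), as did those of spermatids for Cd55 (4.34 to 11.2) and Cd46 (0.021 to 7.43). Cd55b, which is not a member, was not ranked here, and its summed level in spermatids, given below, was above that of Cd55. The order turns on the transcript: the longest Cd59b coding transcript gave 3.05% to 12.1% of the Cd59b sum by group mean, without mouse 613, while ENSMUST00000111132 of Cd59b had 6.07 to 8.56 RPKM in spermatids, with a median of 7.61.

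Other complement regulators gave 7 of 14 tested genes called in spermatogonia, 3 higher and 4 lower, with a median difference of −0.41 where that of all genes was −0.07 and 41.9% of them were called. Susd4 rose by 2.96 (adjusted p = 0.00305, limma), and Srpx2 by 1.37 (adjusted p = 0.0291). Csmd3 (−2.56, adjusted p = 0.013), Cd55b (−2.48, adjusted p = 0.000236) and Csmd2 (−2.17, adjusted p = 0.00447) were lower. Cd55b, the sister gene of Cd55, was higher in spermatids (1.19, adjusted p = 0.0181), as were Cr2 (1.93, adjusted p = 0.00141) and Csmd1 (1.74, adjusted p = 0.0479), which made 3 of 14 where 31.6% of all genes were called. Genotypes were averaged with equal weight, so the Csmd1 value draws on knockout as well as wildtype libraries and does not describe wildtype cells alone. Cd55b stood at 92.7 to 257 summed RPKM in spermatids and 0.081 in the ovary (−9.49 against wildtype testis, adjusted p = 2.46e-05), where Cd55 was at 48.2. In primary spermatocytes Cpb2 was higher (1.02, adjusted p = 0.0233).

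The complement proteins on which the regulators act gave 9 of 18 tested genes called in spermatogonia, 5 higher and 4 lower, where 41.9% of all genes were. C3, the central component, rose there by 1.66 (adjusted p = 0.0072, limma), Cfp by 1.84 (adjusted p = 0.0144) and C1qc by 1.59 (adjusted p = 0.0169), while C4b (−2.50, adjusted p = 0.0033), C8g (−2.11, adjusted p = 0.0344) and C8b (−2.05, adjusted p = 0.00016) fell. Of 6 macrophage markers, 4 were also higher in this gate, with sums of 9.99 to 71.2 RPKM. In spermatids 1 of 18 was called, C1ra (−1.67, adjusted p = 0.0266), where 31.6% of all genes were. In the ovary 8 of 22 tested components were higher and 2 lower, where 15.2% and 12.2% of all genes were, C3 with 468 RPKM against 1.72 and 2.87 in the wildtype testes.

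Patterns like those of the members were ranked by Pearson's r of log2(RPKM + 0.1) over the 27 testis libraries, which share mice, depth and stage, among genes with a mean of at least 1 RPKM. They are descriptions of these libraries. The nearest gene was Dydc2 for Cd46 (r = 0.943), Homez for Cd55 (0.926), Carhsp1 for Cd59a (0.937), Csmd3 for Cd59b (0.875), Jade1 for Cr1l (0.952), Srl for Cfi (0.846), Slc52a3 for Clu (0.979) and Dcn for Serping1 (0.965). Wt1, a Sertoli marker, came second for Clu (0.976). For Cd59b the value rested partly on mouse 613, which was far above the others in both genes (23.2 RPKM of Csmd3), and over the other 26 libraries it was 0.824. Among the members themselves Cd46 with Cd59a had 0.813, Cr1l with Serping1 0.717, and Cd46 with Cd59b 0.646, which was 0.754 without mouse 613.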

How the data were processed

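RNA sequencing of polyadenylated RNA from sorted germ cells, whole testes and an ovary was analysed from the RPKM that the authors deposited per transcript; per the study's methods, paired reads were mapped with TopHat2 to Ensembl release 72. Reads over several transcripts were counted for each, so a gene sum can count a read several times. Transcripts were matched to GENCODE M21 on GRCm38 (90432 of 94480, 95.7%), summed per gene, transformed to log2(RPKM + 0.1), filtered at a mean of 0.1 RPKM (members always kept), and quantile normalized. Groups came from the labels. Fits used limma 3.58.1 in R 4.3.3 (eBayes with trend, Benjamini-Hochberg threshold 0.05) with a mean per genotype and stage; whole organs were fitted apart, and all 27 testis libraries together for whole against sorted. The methods also name PEER adjustment and a count model for sequencing data, neither used here. Fold changes on this scale understate those of low genes. Depth was estimated from values that are whole multiples of 1 read (tolerance 0.06 reads); intervals and floors cover counting error only, and the depth of mouse 613's library is unknown. The fits were tested on simulated data.

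The labels number each mouse, so same-numbered libraries are paired: their deviations from group means correlated with a median of 0.47 over 22 pairs (−0.203 to 0.707), against −0.0359 over 151 pairs of different mice. The reported fits left this pairing out, so mouse as a block was tried as an alternative. Other alternatives were other pseudocounts, filters and normalization, the longest coding transcript, and single mice left out. Members and gene lists were chosen with earlier results of these data known. Log2 differences are given for pairs of member and comparison with an unadjusted p below 0.05, or past the threshold under an alternative; other genes of the 2 complement lists were named by size of difference, up to 3 a direction, among those called. Python 3.11.15, pandas 2.3.3, biopython 1.88 and matplotlib 3.10.9 were used. Results of 1 gene on the list of other complement regulators are not reported here.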

Additional observations from a re-analysis of the deposited data

Results flagged for a closer look

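In 5 of 16 groups of 4 or 5 libraries, counted gene by gene, 1 library lay far from the others. The genes share the same libraries, so these groups are not independent and no rate by chance is given. Of these, 3 were the primary spermatocyte library of knockout mouse 613, whose values were made another way: 1.87 RPKM of Cd46, 103 of Cd59b and 8.03 of Serping1. Among knockout testes Cfi was at 0.223 RPKM in mouse 214, which was 20 reads, and Serping1 at 14.5 RPKM in mouse 308.

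For 2 genes all knockout libraries lay above the wildtype ones in 1 stage and below them in another. How often this happens over all genes was not counted, and the stages held few libraries per genotype. Mean Cd55 was 18.3 RPKM higher in knockout than wildtype spermatogonia, lower in primary spermatocytes (−3.98) and lower in secondary spermatocytes (−5.97). Without the spermatogonia of mouse 544, rich in spermatid transcripts, the first value was 2.29, and without mouse 613 the second was −4.63. The test of a genotype effect that differs among stages gave Cd55 an unadjusted p of 0.0284 and an adjusted p of 1 in limma. Mean Cfi was 0.01 RPKM higher in knockout spermatids, where wildtype libraries were at 0, and lower in knockout spermatogonia (−0.0685, and −0.0155 without mouse 544), with an adjusted p of 1 in the same test.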

How the results depend on the processing

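The members called changed with the processing, and the cause was not tested. Spermatids had 2 members called; there was 1 with no filter on low values or on the longest coding transcript, 5 with the replicate block, 5 without the primary spermatocytes of mouse 613 and the spermatogonia of mouse 544, 4 in wildtype libraries alone and 4 without mice 286 and 648. Primary spermatocytes had 3, with 5 under the block and 0 in wildtype libraries. Any stage difference had 4, with 7 under the block and 7 without the same 2 libraries, and whole against sorted 0, with 1 under the block. Leaving out 1 mouse at a time gave 1 to 5 for spermatogonia (4 as reported), 0 to 5 for primary spermatocytes, 1 to 3 for spermatids, 2 to 5 for any stage, 0 to 1 for whole against sorted, 2 to 4 for the ovary (4), and 0 for secondary spermatocytes and the genotype comparisons. Among 559 alternative values of members in 31 pairs with a comparison, no direction turned, 44 lost and 32 gained the threshold. Of 42 pairs with a direction and an unadjusted p of 0.05 or more, 4 of them among the 31, 25 changed sign in at least 1 alternative. Over all genes the calls ranged from 3730 to 11141 for spermatogonia (7975 as reported), 0 to 7180 for primary (4103), 0 to 1425 for secondary spermatocytes (0), 2925 to 9952 for spermatids (6029), 5304 to 13554 for any stage (9863), 0 to 922 for genotype in sorted cells (2), 0 to 139 in testis (0), 0 to 9 for a genotype effect differing among stages (0), 0 to 35 for whole against sorted (3), and 5115 to 8711 for the ovary (6470). Beside the calls named in the report, the block changed no call of a member. Few reads stand behind Cfi and, in early cells, Cd46.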
